A study of Homo sapiens with 16 samples.

Results

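Expression of the BCL2 family of apoptosis regulators was measured by RNA-Seq in MUTZ-3 cells, an established AML line with inv(3). The 10 members BCL2, BCL2L1, MCL1, BCL2A1, BAX, BAK1, BBC3, PMAIP1, BCL2L11 and BID were chosen by gene name among the 60623 genes of the files. In the first experiment, parental cells were kept for 12, 24 or 48 h with the vehicle DMSO or with a PARP inhibitor (PARPi), either olaparib at 10 µM or talazoparib at 1 µM, and cells without any treatment gave 1 library at 0 h. In the second, cells transduced with a pLKO.1 lentivirus and selected with puromycin carried a non-targeting shRNA (NTC) or one of the EVI1 shRNAs shEVI1-2531 and shEVI1-2532, and were harvested at day 3 and day 6. All cells grew with GM-CSF and with medium conditioned by a bladder carcinoma line. There was 1 library for each of the 16 conditions and hence no replicate of any of them, and p-values rest on the spread between time points or days.

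BCL2 proteins decide whether the outer mitochondrial membrane is opened and cytochrome c is set free, the step that commits a cell to intrinsic apoptosis. The effectors BAX and BAK1 form the pores, the anti-apoptotic proteins BCL2, BCL2L1 (BCL-XL), MCL1 and BCL2A1 (BFL-1) hold them in check, and the BH3-only proteins BBC3 (PUMA), PMAIP1 (NOXA), BCL2L11 (BIM) and BID turn stress signals into activity of the effectors. Myeloid cells are known to lean on MCL1 for survival, BCL2A1 is known as an NF-kB target of differentiated myeloid cells, and BBC3, BAX and PMAIP1 are textbook targets of p53.

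The libraries of the PARPi experiment held 55999673 to 72681943 counts and those of the knockdown experiment 95523038 to 120716213. Every member was well covered, from 542 counts for PMAIP1 in its lowest library to 37022 for MCL1 in its highest, and all 10 passed the filter on low counts in both experiments. Levels are given as CPM, counts relative to the library total after TMM normalization within each experiment, and are not compared between the experiments. The targeted gene, listed as MECOM (EVI1), had 40.6 and 37.2 CPM in the NTC libraries at day 3 and day 6, 13.2 and 17.5 CPM with shEVI1-2531, and 5.14 and 4.31 CPM with shEVI1-2532. EVI1 was thus higher with shEVI1-2531 than with shEVI1-2532, and the log2 fold changes against NTC were −1.34 (SE 0.19) and −3.04 (SE 0.21). The lineage of the cells was checked on marker lists. The erythroid markers HBB, ALAS2 and HBA1 did not reach the filter, with at most 10, 4 and 5 counts in a library. Of the 4 stroma or bladder line markers (COL1A1, COL1A2, KRT5, UPK2), none reached the filter, and their summed level stayed at or below 0.213 CPM in every library. MS4A1, a B cell marker, had 0 counts in every library. The 4 T cell markers summed to 3.24 to 12.7 CPM, and the B cell markers to 9.86 to 17.3 CPM, nearly all of it CD79A.

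Promoter sequences from RefSeq (build GRCh38.p14) were found for 9 of the 10 members, all except MCL1. They are shown for BAX and BAK1, which rose with both EVI1 shRNAs, and for BBC3. BBC3 and BAX were the members called for the mean PARPi effect. The promoter of BCL2A1, which also rose with both EVI1 shRNAs, is not shown. Each stretch begins 250 bases before the RefSeq start and ends before the first exon of the gene in GENCODE v29. It is written 5′ to 3′ on the strand of the gene, with capitals marking matches to the motifs named below. The BAX window lies at chr19:48954625-48954814 on the plus strand, the BAK1 window at chr6:33580337-33580526 on the minus strand and the BBC3 window at chr19:47232768-47232917 on the minus strand.
BAX: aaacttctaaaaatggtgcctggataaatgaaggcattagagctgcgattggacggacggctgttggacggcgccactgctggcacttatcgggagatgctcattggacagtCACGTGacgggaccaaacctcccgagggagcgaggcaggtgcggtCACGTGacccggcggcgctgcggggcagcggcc
BAK1: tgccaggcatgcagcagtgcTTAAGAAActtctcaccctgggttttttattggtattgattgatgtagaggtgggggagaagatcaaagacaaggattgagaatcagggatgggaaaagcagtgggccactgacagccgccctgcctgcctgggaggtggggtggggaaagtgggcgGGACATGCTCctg
BBC3: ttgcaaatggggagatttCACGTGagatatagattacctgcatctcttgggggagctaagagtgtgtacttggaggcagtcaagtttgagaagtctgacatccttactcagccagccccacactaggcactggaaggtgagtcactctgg
Both strands were searched for the p53 half-site, the kappaB site, the C/EBP motif TTNNGNAA, the E-box CACGTG and the PU.1 core GAGGAA, the last pair chosen after the sequences had been seen. BAX held 2 E-boxes and BBC3 1, where 4.13% of all 35116 promoters have an E-box in the same 190 bases and 2.98% in the same 150 bases. BAK1 held 1 p53 half-site (4.29% of promoters) and 1 C/EBP motif (28.5%). In the windows shown, BAX and BBC3 held 0 p53 half-sites. A match describes the letters and not binding of a factor.

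The level of the members relative to each other was compared per length, as CPM per kb of annotated exon. Over the 3 DMSO libraries, BAX was highest (54.7 to 78.2 CPM per kb), followed by MCL1 (35.7 to 42.5), BAK1 (25.2 to 40.3), BCL2A1 (24.3 to 28.0), BCL2L1 (19.3 to 21.7) and BID (15.9 to 20.0). Lower levels were found for BBC3 (6.82 to 7.96), PMAIP1 (5.27 to 9.66), BCL2L11 (4.39 to 5.28) and BCL2 (3.15 to 3.92). BAX stood apart from MCL1, BCL2A1 from BCL2L1, and BCL2L11 from BCL2, whereas the ranges of MCL1 and BAK1, of BAK1 and BCL2A1, of BCL2L1 and BID, of BBC3 and PMAIP1, and of PMAIP1 and BCL2L11 overlapped. BCL2 was thus the lowest of the 10 members per length, also in both NTC libraries (2.04 and 2.17 CPM per kb). By CPM alone, BCL2 (37.0 to 46.1) was above BCL2A1 (26.4 to 30.5) in the DMSO libraries. The exon lengths, 11765 bases for BCL2 and 1089 for BCL2A1, came from GENCODE v29, while the annotation used for counting is not given.

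To see how PARP inhibition altered these genes, inhibitor libraries were compared with the DMSO library of the same time. BCL2A1 was the member that moved most, rising to 6.06 times its DMSO level with talazoparib at 48 h, together with MCL1, while BCL2 fell over the same hours. The effectors and the BH3-only genes moved less, and BBC3 was the exception, since it was highest at the first time point and came down later. Averaged over time points and inhibitors, the quasi-likelihood test of edgeR, with p-values adjusted after Benjamini and Hochberg over all genes, called 2 members higher, BBC3 and BAX, where 3.16% of all genes tested were called higher. It called 0 members lower (1 at an unadjusted p under 0.05, BCL2, and 0 lower by DESeq2), where 1.01% of all genes were called lower. The median log2 fold change of the 10 members was 0.35, beside −0.01 for all 17218 genes. In the model with a slope on time, 2 members had an inhibitor effect that rose with time, BCL2A1 and MCL1 (10.0% of all genes), and 2 one that fell with time, BCL2 and BBC3 (9.82% of all genes). The SE of a slope was 0.13 to 0.14 for every member, as this fit had 2 residual degrees of freedom and took most of its spread from all genes together. The median slope of the members was 0.10 log2 units per doubling of time, against −0.01 for all genes. Both mean calls were lost when scaled to the library total only (BBC3 0.68, adjusted p = 0.0644, BAX 0.43, adjusted p = 0.0556), where 468 of 17218 genes were called in place of 718. No member was called with olaparib or talazoparib alone (5 and 3 at an unadjusted p under 0.05). Those fits called 23 of 16659 and 4 of 16675 genes in all. As olaparib and talazoparib were given at different doses, their values are set side by side and not compared, and both share the same DMSO libraries.

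**Figure D1:**
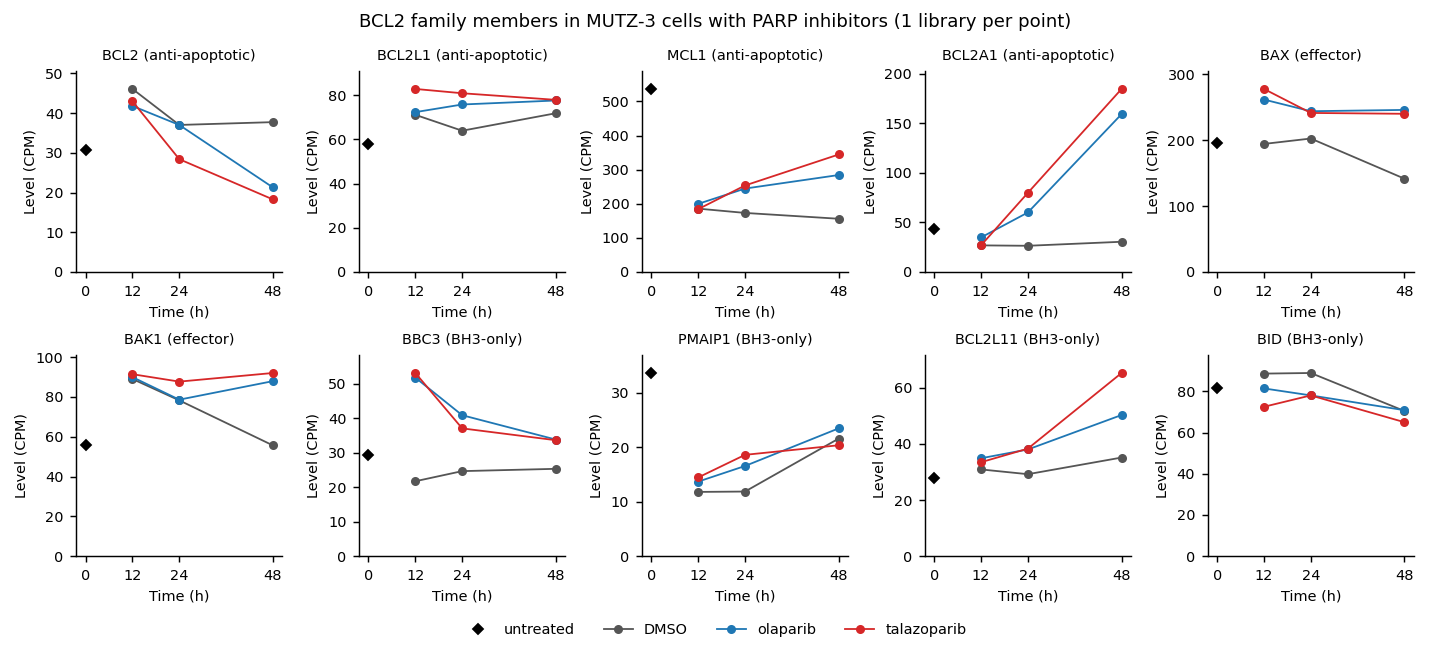
Level (CPM, y axis from 0) of the 10 members against time in hours (x axis), with 1 library per point: untreated cells at 0 h (diamond), DMSO (grey), olaparib (blue) and talazoparib (red). BCL2A1 reaches 159 and 185 CPM with the inhibitors at 48 h while DMSO stays between 26.4 and 30.5 CPM, and BCL2 falls to 21.3 and 18.3 CPM.

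Among the anti-apoptotic members, BCL2A1 (ENSG00000140379, chromosome 15, 79960892 to 79971196, minus strand, GRCh38) had 26.8, 26.4 and 30.5 CPM with DMSO at 12, 24 and 48 h. It had 34.9, 60.1 and 159 CPM with olaparib, and 27.0, 79.9 and 185 CPM with talazoparib. The inhibitor libraries lay above all DMSO libraries from 24 h on, and talazoparib at 12 h was level with DMSO. The log2 ratio to DMSO rose from 0.38 (95% confidence interval 0.29 to 0.47, counting error only) over 1.18 to 2.39 with olaparib, and from 0.01 (−0.09 to 0.10) over 1.60 to 2.60 with talazoparib. The slope was 1.14 log2 units per doubling of time (SE 0.13, Benjamini-Hochberg adjusted p = 5.5e-15, edgeR), and it was called in all 6 alternatives tried. The mean effect of 1.28 (SE 0.38) had an adjusted p of 0.0659, and without the 12 h libraries it was 1.91 with an adjusted p of 0.0016.

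MCL1 (ENSG00000143384, chromosome 1, 150574551 to 150579738, minus strand), which encodes a short-lived survival protein, had 186, 173 and 156 CPM with DMSO. Its levels were 200, 245 and 284 CPM with olaparib and 184, 254 and 344 CPM with talazoparib. Both inhibitors were thus above DMSO at 24 and 48 h, and at 12 h the log2 ratios were 0.10 (0.07 to 0.14) and −0.01 (−0.05 to 0.02). At 48 h the ratios came to 0.87 and 1.14. The slope was 0.47 (SE 0.13, adjusted p = 0.0033), and it was lost without the talazoparib libraries (0.38, adjusted p = 0.0616). The mean effect of 0.51 (SE 0.17, adjusted p = 0.0788) did not pass, and passed without the 12 h libraries (0.76, adjusted p = 0.0149).

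BCL2 (ENSG00000171791, chromosome 18, 63123346 to 63320128, minus strand), the founding survival gene of the family, moved the other way. It had 46.1, 37.0 and 37.7 CPM with DMSO, 41.8, 37.0 and 21.3 CPM with olaparib, and 43.0, 28.4 and 18.3 CPM with talazoparib. Only the 48 h inhibitor libraries and talazoparib at 24 h lay below the whole DMSO range, and olaparib at 24 h equalled its DMSO library. At 48 h the log2 ratios were −0.83 (−0.93 to −0.72) and −1.05 (−1.16 to −0.93). The effect changed by −0.42 per doubling of time (SE 0.13, adjusted p = 0.0122), a call lost without the talazoparib libraries (−0.34, adjusted p = 0.0828). The mean effect was −0.42 (SE 0.17, adjusted p = 0.115).

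BCL2L1 (ENSG00000171552, chromosome 20, 31664452 to 31723989, minus strand), the gene of BCL-XL, stayed near its DMSO level. It had 71.1, 63.9 and 71.8 CPM with DMSO, 72.3, 75.8 and 77.6 CPM with olaparib and 82.8, 80.9 and 77.9 CPM with talazoparib. All 6 log2 ratios were above 0, between 0.02 and 0.34, but both 48 h ratios turned negative when scaled to the library total only (−0.08 and −0.16). Neither its mean effect (0.18, SE 0.09, adjusted p = 0.192) nor its slope (−0.01, SE 0.13, adjusted p = 0.959) was called. The antisense gene ABALON overlaps BCL2L1 and held 60 to 233 counts, and the use of strand in counting is not given in the sources used here.

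The effector BAX (ENSG00000087088, chromosome 19, 48954815 to 48961798, plus strand) had 194, 202 and 142 CPM with DMSO, 262, 244 and 246 CPM with olaparib, and 278, 241 and 240 CPM with talazoparib. Each of the 6 inhibitor libraries was above each of the 3 DMSO libraries. The log2 ratios were largest at 48 h (0.80 and 0.76), the time at which the DMSO level was lowest and the inhibitor levels were about those of 24 h. With the 24 h DMSO library as control, the 48 h ratios were 0.28 and 0.25. The mean effect was 0.50 (SE 0.11, adjusted p = 0.0495) and the slope 0.14 (SE 0.13, adjusted p = 0.503). This mean lay at the threshold, and its call was lost with the 12 h (0.51, adjusted p = 0.0632), 24 h (0.63, adjusted p = 0.340) or 48 h libraries left out (0.38, adjusted p = 0.0546). Without the 24 h libraries, 0 of the 16613 genes tested were called.

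BAK1 (ENSG00000030110, chromosome 6, 33572547 to 33580293, minus strand), the other pore-forming gene, had 89.1, 78.3 and 55.6 CPM with DMSO, 90.0, 78.7 and 88.0 CPM with olaparib, and 91.5, 87.7 and 92.1 CPM with talazoparib. It separated most at 48 h, when DMSO had dropped and the inhibitor libraries had not. The log2 ratios at that time were 0.66 (0.60 to 0.72) and 0.73 (0.66 to 0.79). Mean effect (0.26, SE 0.13, adjusted p = 0.191) and slope (0.32, SE 0.13, adjusted p = 0.0706) were not called.

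Of the BH3-only genes, BBC3 (ENSG00000105327, chromosome 19, 47220822 to 47232766, minus strand), which encodes PUMA, had 21.7, 24.6 and 25.3 CPM with DMSO. Olaparib libraries held 51.8, 40.9 and 33.8 CPM, and talazoparib libraries 53.1, 37.1 and 33.6 CPM. All 6 lay above all DMSO libraries, with the largest distance at 12 h. The log2 ratio declined from 1.26 (1.17 to 1.35) to 0.42 (0.32 to 0.51) with olaparib and from 1.29 (1.21 to 1.38) to 0.41 (0.31 to 0.51) with talazoparib. The mean effect was 0.77 (SE 0.16, adjusted p = 0.0458) and the slope −0.44 (SE 0.14, adjusted p = 0.0091). The mean was not called without the 24 h libraries (0.82, adjusted p = 0.340), a fit in which 0 genes in all were called. The slope was not called without the olaparib libraries (−0.44, adjusted p = 0.0693).

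BCL2L11 (ENSG00000153094, chromosome 2, 111119378 to 111168445, plus strand), the gene of BIM, had 30.9, 29.2 and 35.2 CPM with DMSO, 34.9, 38.0 and 50.3 CPM with olaparib, and 33.5, 38.3 and 65.3 CPM with talazoparib. From 24 h on the inhibitor libraries lay above the DMSO range, and at 12 h they lay within it. The mean effect of 0.41 (SE 0.13, adjusted p = 0.0742) was called only without the 12 h libraries (0.55, adjusted p = 0.0465) among the fits with a time point left out, and the slope was 0.27 (SE 0.13, adjusted p = 0.148). The antisense gene MIR4435-2HG spans BCL2L11 entirely. It had 25.7 to 31.1 CPM with DMSO and 21.8 to 26.9 CPM with the inhibitors, and its part in the BCL2L11 counts was not tested.

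PMAIP1 (ENSG00000141682, chromosome 18, 59899948 to 59904306, plus strand), the gene of NOXA, had 11.8, 11.9 and 21.6 CPM with DMSO, 13.7, 16.6 and 23.5 CPM with olaparib and 14.5, 18.6 and 20.4 CPM with talazoparib. Control and inhibitor levels overlapped, and the DMSO level itself rose between 24 and 48 h (log2 ratio 0.87, 95% confidence interval 0.74 to 0.99). BID (ENSG00000015475, chromosome 22, 17734138 to 17774770, minus strand), which links death receptors to mitochondria once cleaved, had 88.7, 89.0 and 70.5 CPM with DMSO, 81.5, 78.1 and 70.9 CPM with olaparib, and 72.6, 78.1 and 65.1 CPM with talazoparib. Neither gene was called, with mean effects of 0.28 (SE 0.13, adjusted p = 0.170) and −0.15 (SE 0.09, adjusted p = 0.253). Their slopes were −0.13 (SE 0.14, adjusted p = 0.562) and 0.07 (SE 0.13, adjusted p = 0.789), the latter −0.04 when scaled to the library total only.

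The untreated library differed from DMSO at 12 h by as much as some inhibitor effects, and for MCL1 and PMAIP1 by more than any. MCL1 stood at 537 CPM and PMAIP1 at 33.7 CPM in untreated cells, and both were lower with DMSO at 12 h (log2 ratios −1.53 and −1.51). Their largest inhibitor ratios were 1.14 (talazoparib at 48 h) and 0.65 (talazoparib at 24 h). Their highest inhibitor levels were 344 CPM (talazoparib at 48 h) and 23.5 CPM (olaparib at 48 h). BCL2A1 (−0.71) and BBC3 (−0.43) were also lower with DMSO, whereas BAK1 (0.67) and BCL2 (0.59) were higher. These are ratios of single libraries with no test.

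EVI1 knockdown was examined in the same way against NTC of the same day. With shEVI1-2532, 6 members were called higher (BCL2A1, MCL1, BCL2L11, BAX, BAK1 and BID) and 1 lower (PMAIP1), where 21.2% and 19.9% of the 18606 genes tested were called higher and lower by the same edgeR test. With shEVI1-2531, BCL2A1, BAX, BAK1 and MCL1 were called higher, 4 members against 9.49% of all genes, and 0 were called lower against 7.90% (0 at an unadjusted p under 0.05 and 0 by DESeq2). The medians of the 10 members were 0.41 and 0.27 on the log2 scale, beside 0.00 and 0.01 for all genes. Between the shRNAs, 3 members were higher with shEVI1-2532 (BCL2A1, BCL2L11 and MCL1, beside 12.2% of all genes) and 2 lower (PMAIP1 and BCL2L1, beside 12.0%), with a member median of −0.02 against 0.02 for all genes. Both shRNAs share the NTC libraries. Scaling to the library total only moved the median of all genes to −0.30 with shEVI1-2532 and −0.16 with shEVI1-2531, and relative to NTC it ended the calls of BAX (0.22), BAK1 (0.16) and BID (0.07) with shEVI1-2532 and of BAK1 (0.41) and MCL1 (0.35) with shEVI1-2531. With the day left out of the model, 2 members were called with shEVI1-2532 and 0 with shEVI1-2531 (3 at an unadjusted p under 0.05). Over all genes, 3536 and 565 were then called, in place of 7648 and 3235.

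**Figure D2:**
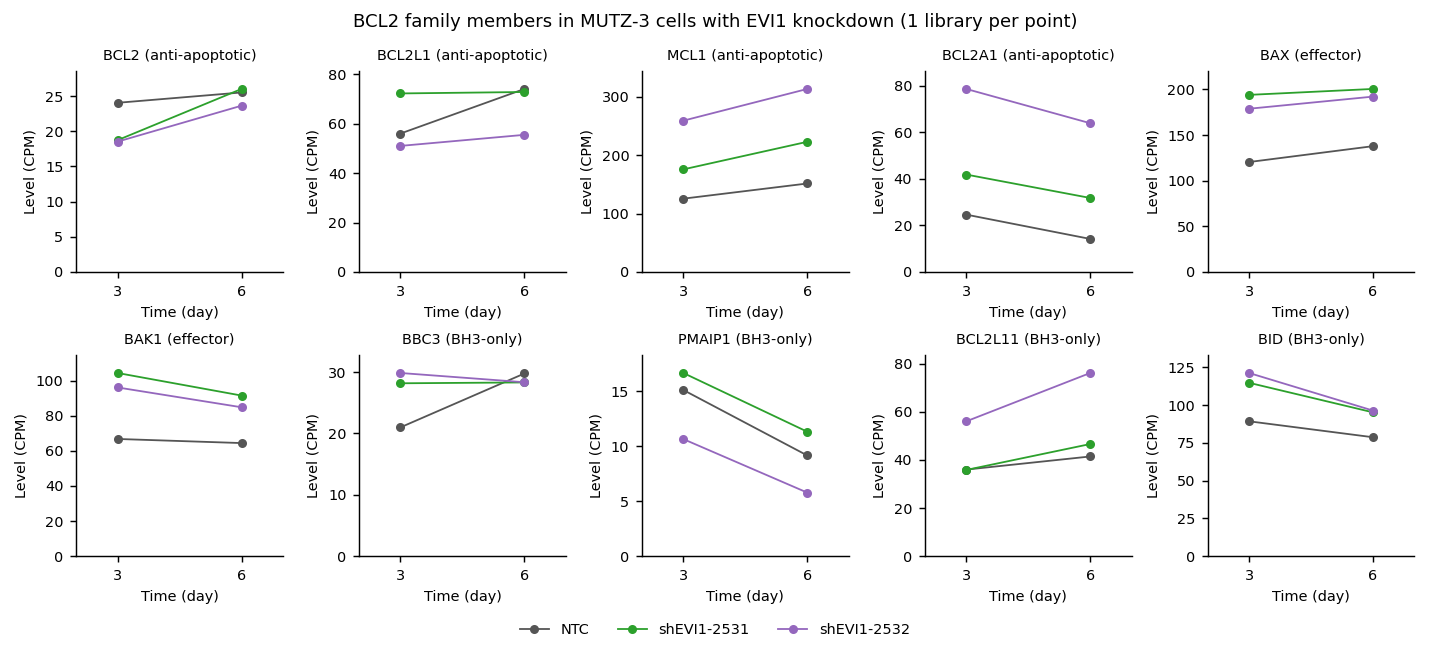
Level (CPM, y axis from 0) of the 10 members at day 3 and day 6 (x axis), with 1 library per point, for NTC (grey), shEVI1-2531 (green) and shEVI1-2532 (purple). BCL2A1 and MCL1 are lowest in NTC, higher with shEVI1-2531 and highest with shEVI1-2532 at both days, whereas PMAIP1 is lowest with shEVI1-2532 (10.7 and 5.77 CPM).

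BCL2A1 again led the members. It had 24.7 and 14.2 CPM with NTC at day 3 and day 6, 41.9 and 31.8 CPM with shEVI1-2531, and 78.7 and 64.0 CPM with shEVI1-2532. The groups did not overlap, and the order was the same at both days. The log2 fold change was 0.96 (SE 0.16, adjusted p = 0.0019) with shEVI1-2531 and 1.92 (SE 0.17, adjusted p = 4.3e-06) with shEVI1-2532, and the difference between the shRNAs was 0.96 (SE 0.16, adjusted p = 0.00136). MCL1 had 126 and 152 CPM with NTC, 176 and 223 CPM with shEVI1-2531, and 259 and 314 CPM with shEVI1-2532, in the same order. Its fold changes were 0.52 (SE 0.12, adjusted p = 0.0122) and 1.05 (SE 0.12, adjusted p = 4.0e-05), and the difference 0.53 (SE 0.12, adjusted p = 0.0087). The call of MCL1 with shEVI1-2531 was lost without NTC at day 3 (adjusted p = 0.0868) or day 6 (0.0633), or without shEVI1-2531 at day 3 (0.0525) or day 6 (0.0537). The call of the difference was lost without shEVI1-2531 at day 3 (0.49, adjusted p = 0.0822).

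BCL2 and BCL2L1 were not called against NTC with either shRNA. BCL2 had 24.0 and 25.5 CPM with NTC, 18.7 and 26.0 CPM with shEVI1-2531, and 18.5 and 23.6 CPM with shEVI1-2532, so that the day 3 knockdown libraries were the furthest below NTC. Its log2 fold changes were −0.17 (SE 0.17, adjusted p = 0.547) and −0.25 (SE 0.17, adjusted p = 0.265). BCL2L1 had 56.1 and 74.1 CPM with NTC, 72.3 and 72.9 CPM with shEVI1-2531, and 51.1 and 55.5 CPM with shEVI1-2532. It was lower with shEVI1-2532 than with shEVI1-2531 at both days, with a difference of −0.45 (SE 0.14, adjusted p = 0.0388), a call lost without shEVI1-2531 at day 3 (−0.32, adjusted p = 0.330), shEVI1-2532 at day 3 (−0.49, adjusted p = 0.118) or shEVI1-2532 at day 6 (−0.40, adjusted p = 0.197). With shEVI1-2531 its fold change of 0.17 (SE 0.14, adjusted p = 0.464) turned to −0.04 without NTC at day 3. Against NTC, the value was −0.28 (SE 0.14, adjusted p = 0.139) with shEVI1-2532, which became a call of −0.50 without NTC at day 3 (adjusted p = 0.0440). Scaled to the library total only, BCL2 (−0.55, adjusted p = 0.0220) and BCL2L1 (−0.58, adjusted p = 0.0090) were called lower with shEVI1-2532.

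Both effectors rose with either shRNA. BAX had 121 and 138 CPM with NTC, 194 and 201 CPM with shEVI1-2531, and 179 and 192 CPM with shEVI1-2532. BAK1 had 66.8 and 64.5 CPM with NTC, 105 and 91.6 CPM with shEVI1-2531, and 96.3 and 84.9 CPM with shEVI1-2532. All knockdown libraries were above both NTC libraries for both genes. The log2 fold changes of BAX were 0.61 (SE 0.12, adjusted p = 0.0055) and 0.52 (SE 0.12, adjusted p = 0.0053), and those of BAK1 0.58 (SE 0.13, adjusted p = 0.0092) and 0.46 (SE 0.13, adjusted p = 0.0127) with shEVI1-2531 and shEVI1-2532. The differences between the shRNAs, −0.09 (SE 0.12) for BAX and −0.11 (SE 0.13) for BAK1, were within their errors. All 4 calls were lost without NTC at day 3, with BAX at 0.52 (adjusted p = 0.0770) and 0.41 (0.0838) and BAK1 at 0.47 (0.104) and 0.34 (0.144). Without shEVI1-2531 at day 3, its BAX (0.57, adjusted p = 0.0502) and BAK1 (0.54, adjusted p = 0.0746) calls were lost, and without shEVI1-2532 at day 3 its BAK1 call (0.44, adjusted p = 0.0800).

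The BH3-only genes split. BCL2L11 had 36.0 and 41.5 CPM with NTC, 35.9 and 46.6 CPM with shEVI1-2531, and 56.1 and 76.2 CPM with shEVI1-2532. Only the shEVI1-2532 libraries stood above all others, with a log2 fold change of 0.76 (SE 0.14, adjusted p = 0.00124), against 0.08 (SE 0.14, adjusted p = 0.752) with shEVI1-2531, which was −0.09 when scaled to the library total only. The difference between the shRNAs was 0.68 (SE 0.14, adjusted p = 0.0051), a call lost without shEVI1-2532 at day 6 (0.60, adjusted p = 0.0661). MIR4435-2HG, on the other strand, went from 21.2 to 21.7 CPM with NTC to 15.4 to 15.9 CPM with shEVI1-2531 and 13.7 to 14.9 CPM with shEVI1-2532. It was thus below NTC with either shRNA, and its part in the BCL2L11 counts was not tested.

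PMAIP1 had 15.1 and 9.16 CPM with NTC, 16.7 and 11.3 CPM with shEVI1-2531, and 10.7 and 5.77 CPM with shEVI1-2532. At either day shEVI1-2532 was lowest, although its day 3 level exceeded that of NTC at day 6. The log2 fold changes were 0.23 (SE 0.17, adjusted p = 0.419) with shEVI1-2531 and −0.58 (SE 0.18, adjusted p = 0.0193) with shEVI1-2532, and they differed by −0.81 (SE 0.18, adjusted p = 0.0062). The call with shEVI1-2532 was lost without its day 3 (−0.70, adjusted p = 0.0560) or day 6 library (−0.46, adjusted p = 0.237) or without NTC at day 6 (−0.58, adjusted p = 0.0543), and the difference without shEVI1-2532 at day 6 (−0.69, adjusted p = 0.0923).

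BID had 89.2 and 78.7 CPM with NTC, 115 and 95.1 CPM with shEVI1-2531, and 121 and 96.3 CPM with shEVI1-2532. Every knockdown library was above both NTC libraries. Its log2 fold change with shEVI1-2532 was 0.37 (SE 0.13, adjusted p = 0.0362), a call lost without NTC at day 3 (0.25, adjusted p = 0.275) or day 6 (0.44, adjusted p = 0.0633) or without shEVI1-2532 at day 3 (0.32, adjusted p = 0.218) or day 6 (0.42, adjusted p = 0.0868). The call was also lost with DESeq2 (0.36, adjusted p = 0.0545) and with no filter on low counts (0.34, adjusted p = 0.0897), and it was kept in 4 of 13 alternatives. With shEVI1-2531 the fold change of BID was 0.32 (SE 0.13, adjusted p = 0.108). BBC3, the BH3-only member with the largest mean PARPi effect, had 21.0 and 29.8 CPM with NTC, 28.2 and 28.3 CPM with shEVI1-2531, and 29.9 and 28.4 CPM with shEVI1-2532. It lay above NTC at day 3 and level with it at day 6, and its fold changes of 0.17 (SE 0.18, adjusted p = 0.577) and 0.21 (SE 0.18, adjusted p = 0.373) changed sign without NTC at day 3 (−0.13 and −0.11) and when scaled to the library total only (−0.01 and −0.09).

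**Figure D3:**
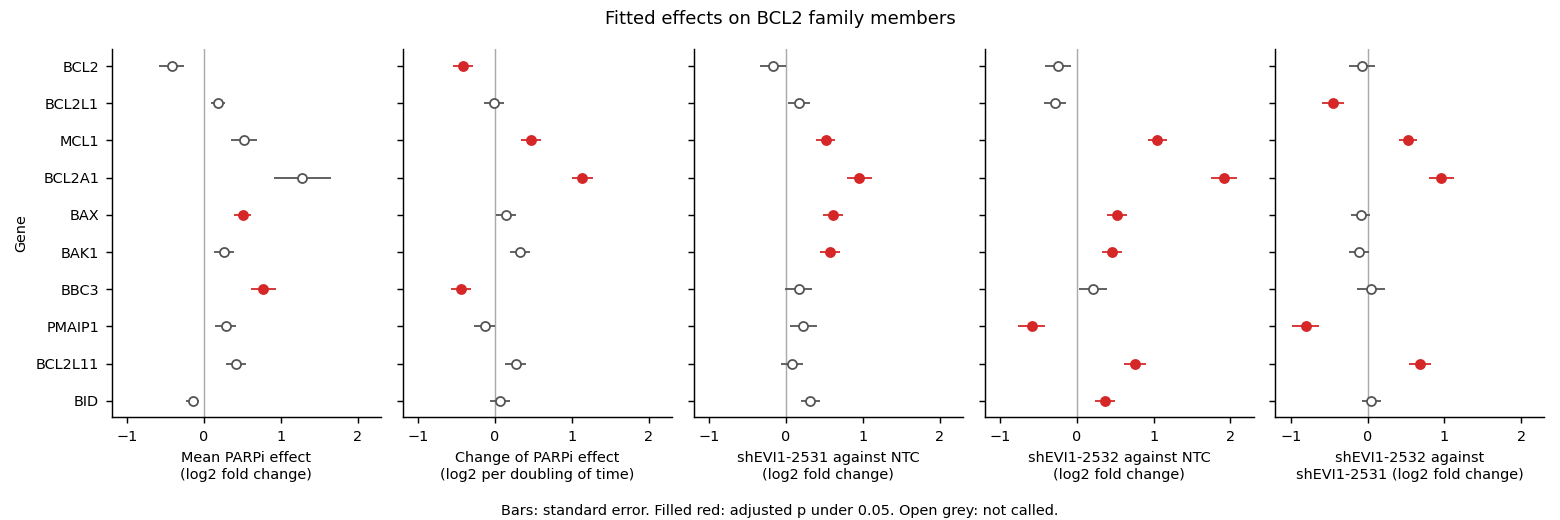
Fitted effect (x axis, log2) of each member (y axis) in 5 comparisons, with bars for the standard error and filled red points for an adjusted p under 0.05. BCL2A1 is called in all comparisons except the mean PARPi effect, where its error is 0.38, and BAX is at 0.61 and 0.52 with shEVI1-2531 and shEVI1-2532.

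The make-up of the anti-apoptotic genes shifted in both experiments. Of the summed CPM per kb of BCL2, BCL2L1, MCL1 and BCL2A1, BCL2A1 took 26.6%, 28.1% and 31.6% with DMSO at 12, 24 and 48 h, and 31.1%, 40.2% and 61.8% with olaparib. With talazoparib its share was 25.9%, 46.4% and 62.0%. BCL2L1 dropped from 24.5% with DMSO to 9.91% with olaparib and 8.60% with talazoparib at 48 h, and BCL2 from 3.62% to 0.77% and 0.57%, although the level of BCL2L1 itself was little altered. In the knockdown experiment the BCL2A1 share was 32.2% and 18.1% with NTC at day 3 and day 6, 37.7% and 28.0% with shEVI1-2531, and 48.6% and 39.4% with shEVI1-2532. MCL1 kept between 39.4% and 48.9% in all 6 knockdown libraries. Of the summed CPM per kb of the effector pair, BAX took 65.1%, 68.8% and 68.5% with DMSO at 12, 24 and 48 h, 71.3%, 72.6% and 70.5% with olaparib and 72.2%, 70.2% and 69.0% with talazoparib. All 6 inhibitor libraries were above the 3 DMSO libraries, and the untreated library was at 75.0%. In the knockdown experiment its share was 60.7% and 64.7% with NTC at day 3 and day 6, 61.4% and 65.2% with shEVI1-2531, and 61.4% and 65.9% with shEVI1-2532. These shares are a description and were not tested.

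**Figure D4:**
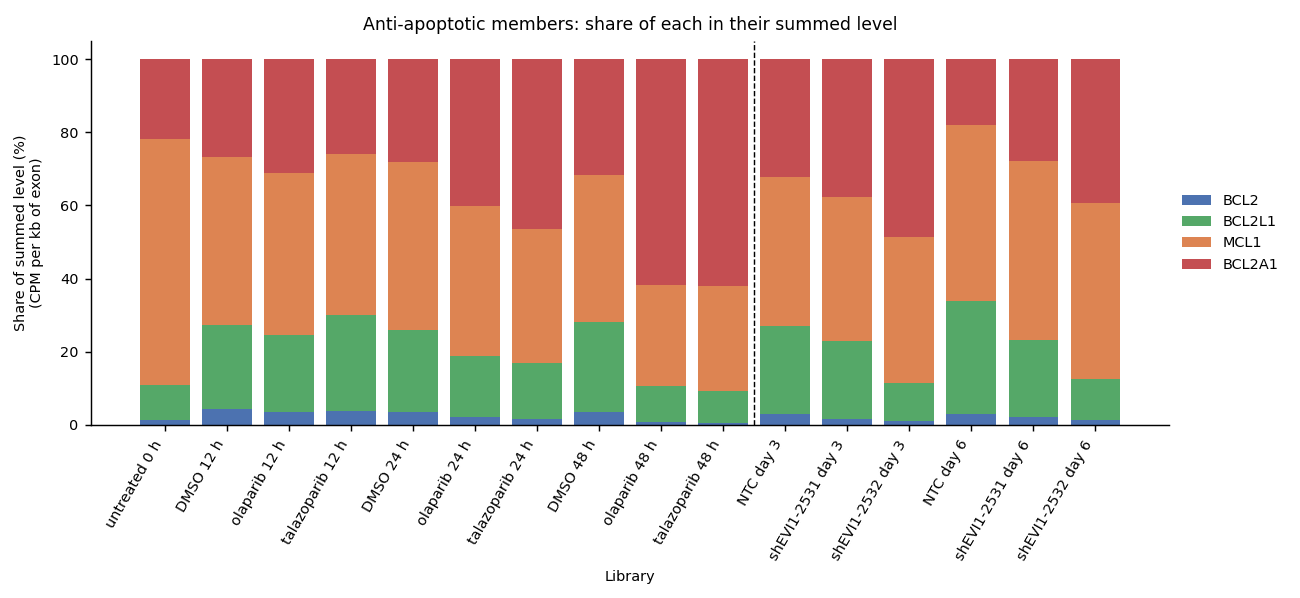
Share (%, y axis) of each anti-apoptotic member in the summed level of the 4 genes, as CPM per kb of exon, in each of the 16 libraries (x axis), with the PARPi experiment left of the dashed line and the knockdown experiment right of it. The BCL2A1 share is 61.8% and 62.0% with olaparib and talazoparib at 48 h, and BCL2 is the smallest share in every library.

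The 4 members with the widest span of their 10 log2 ratios were BCL2A1 (2.59), BBC3 (1.36), PMAIP1 (1.32) and MCL1 (1.15). In a search of the 8717 genes whose mean log2 CPM exceeded 3 in both experiments, those whose ratios ran most alike were YPEL5, RCBTB2 and RIT1 for BCL2A1 (Pearson r 0.991, 0.990 and 0.989 over 10 ratios). They were NCF1, UPP1 and PELI3 for MCL1 (0.990, 0.987 and 0.985), SH2B3, TEC and PPIL4 for PMAIP1 (0.967, 0.963 and 0.960), and ADGRA2, HSPB1 and ETS2 for BBC3 (0.959, 0.95 and 0.949). The ratios share their DMSO and NTC libraries, so these values describe likeness only.

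Myeloid markers changed in both experiments. The summed level of 10 monocyte markers was 1101 to 1439 CPM with DMSO, 9928 CPM with olaparib and 16666 CPM with talazoparib at 48 h, and it was 1109 to 1533 CPM with NTC, 2538 to 3143 CPM with shEVI1-2531 and 10012 to 10050 CPM with shEVI1-2532. LYZ, S100A8 and S100A9 made up most of these sums, with up to 4115, 3804 and 8130 CPM with talazoparib. CSF1R was not called for the slope (−0.32, SE 0.13, adjusted p = 0.0629) or with shEVI1-2532 (0.32, SE 0.22, adjusted p = 0.254). Of the 10, 1 was higher for the mean PARPi effect, 8 had a slope that rose, and 8 were higher with shEVI1-2532 and 6 with shEVI1-2531. The 5 immature myeloid markers, MECOM among them, summed to 458 to 600 CPM with DMSO and to 249 and 147 CPM with olaparib and talazoparib at 48 h, and to 387 to 739 CPM with NTC, 141 to 145 CPM with shEVI1-2531 and 17.8 to 22.0 CPM with shEVI1-2532. Of these 5, 0 were called by edgeR for the mean PARPi effect (3 at an unadjusted p under 0.05, and 2 by DESeq2), 4 had a slope that fell, 4 were lower with shEVI1-2532, and 1 was higher and 4 lower with shEVI1-2531. The one higher was the receptor gene KIT, at 41.2 to 41.7 CPM against 18.7 to 34.0 CPM with NTC (0.71, SE 0.20, adjusted p = 0.0321), while with shEVI1-2532 KIT fell (−1.30, SE 0.21, adjusted p = 0.00038). Of the 5 granule precursor markers, 2 had a slope that fell, 4 were higher with shEVI1-2532, and 1 was higher and 2 lower with shEVI1-2531. CD14, a monocyte receptor, had the largest slope of the monocyte markers (2.12, SE 0.15). The part of these markers in the changes of BCL2A1, MCL1 and BCL2 was not tested, and in such bulk samples more cells of a type and more RNA per cell cannot be told apart.

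The rest of the apoptosis machinery was followed on lists of related genes. Of 13 further BCL2 proteins, 11 were tested under PARPi, where the mean effect was higher for the BH3-only genes BIK (1.97, SE 0.24, adjusted p = 0.0131) and BMF (0.64, SE 0.10, adjusted p = 0.0226), and the slope was lower for BOK (−1.92, SE 0.57, adjusted p = 0.0064). With shEVI1-2532, 3 of 10 tested were higher, namely BMF (1.15, SE 0.14), BNIP3 (0.46, SE 0.17) and BCL2L13 (0.45, SE 0.13). With shEVI1-2531, BCL2L12 was higher (0.51, SE 0.15) and the mitophagy receptor BNIP3L lower (−0.77, SE 0.16).

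Of the 15 genes of the list of p53 and its textbook targets, 11 were higher for the mean PARPi effect, with a median of 1.05, led by CDKN1A, the cell cycle inhibitor p21 (1.87, SE 0.23, adjusted p = 0.0131). With either shRNA, 10 were higher and 1, the p53 inhibitor MDM4, was lower, and ZMAT3 rose most (1.80, SE 0.19, and 3.12, SE 0.20). Of 9 death receptors and ligands tested, 5 were higher for the mean PARPi effect, among them FAS (1.13, SE 0.14, adjusted p = 0.0141) and the decoy receptor TNFRSF10C (2.05, SE 0.27, adjusted p = 0.0147), and 6 were higher and 1 lower with shEVI1-2532.

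Downstream of the mitochondria, 16 genes of the apoptosome, caspases and caspase inhibitors gave 0 calls by edgeR for the mean PARPi effect (7 at an unadjusted p under 0.05, and 6 calls by DESeq2). For the slope, 2 were higher, BIRC3 (1.41, SE 0.28) and the apoptosome scaffold APAF1 (0.41, SE 0.13), and 2 lower, BIRC5 (−0.92, SE 0.13) and CASP2 (−0.36, SE 0.13). With shEVI1-2532 5 were higher and 5 lower, among them APAF1 (1.26, SE 0.18) and BIRC5, the mitotic gene of survivin (−1.44, SE 0.13). With shEVI1-2531 2 were higher and 1 lower. Among 18 transcription factors known to act on BCL2 genes, edgeR called the NF-kB subunit RELB alone for the mean PARPi effect (1.03, SE 0.20, adjusted p = 0.0399), with 9 at an unadjusted p under 0.05 and 6 calls by DESeq2. For the slope 1 was higher and 4 lower, with shEVI1-2532 4 were higher and 6 lower, and with shEVI1-2531 1 was higher and 3 lower. RELB had a slope of 0.33 (SE 0.15, adjusted p = 0.113) and a log2 fold change of 0.04 (SE 0.24, adjusted p = 0.902) with shEVI1-2532. With shEVI1-2531, RELB (−0.98, SE 0.24, adjusted p = 0.0148) and the NF-kB subunit NFKB2 (−1.13, SE 0.22, adjusted p = 0.0044) were called lower. With shEVI1-2532, the NF-kB subunit RELA was called higher (0.71, SE 0.13, adjusted p = 0.00093). The subunits NFKB1 (0.17, adjusted p = 0.370) and NFKB2 (−0.52, adjusted p = 0.0755) were not called there. The part of these subunits in the changes of BCL2A1 was not tested. SPI1, the gene of PU.1, had a slope of 0.43 (SE 0.13, adjusted p = 0.0106) and rose with shEVI1-2531 (0.56, SE 0.12, adjusted p = 0.0088) and shEVI1-2532 (1.00, SE 0.13, adjusted p = 6.2e-05). Of 10 factors that set the stability of MCL1 or BIM proteins, 0 were called by edgeR for the mean PARPi effect (1 at an unadjusted p under 0.05), the slope (1) or shEVI1-2531 (3) and 0 by DESeq2, and 2 were higher and 2 lower with shEVI1-2532. Of 8 pore and membrane partners, TMBIM6 (0.86, SE 0.12, and 1.73, SE 0.13) and BCAP31 (0.56, SE 0.13, and 0.96, SE 0.13) rose with shEVI1-2531 and shEVI1-2532. HSPA9 was called lower by edgeR with shEVI1-2532 (−0.43, SE 0.13, adjusted p = 0.016). For the slope, edgeR called HSPA9 (−0.41, SE 0.13, adjusted p = 0.0112) and VDAC1 (−0.35, SE 0.13, adjusted p = 0.0414) lower. For the mean PARPi effect, 0 of the 8 were called by edgeR (2 at an unadjusted p under 0.05, and 1 by DESeq2).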

How the data were processed

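RNA-Seq libraries of MUTZ-3 cells were made from poly(A) RNA. Per the labels, the authors aligned reads with STAR and counted them per gene with featureCounts on GRCh38, and the deposited raw counts were used here. The authors also deposited TPM, which equal these counts divided by the whole span of each gene and scaled to a fixed total, as checked on the values, and were not used. Versions, annotation and use of strand are not given in the sources used here. The names of the shEVI1-2531 files carry another number, and the labels were followed.

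Genes were tested if 3 of the 9 time course libraries, or 2 of the 6 knockdown libraries, each held 10 or more counts. TMM factors scaled the libraries, and models were fitted in edgeR 4.0.16 (quasi-likelihood test, R 4.3.3) with time or day as a factor and each inhibitor or shRNA as a term. The fits had 4 (mean), 2 (slope on log2 hours) and 2 (knockdown) residual degrees of freedom, and an adjusted p under 0.05 was called. Ratios of single libraries have exact 95% intervals for counting error only. The smallest level a library can show, 3 counts, was 0.0249 to 0.0536 CPM. Length was the union of GENCODE v29 exons. The edgeR fits of the mean, slope and shEVI1-2532 effects were tested on simulated data.

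The members were found by gene name, but this set of genes and the other gene lists were chosen with earlier results of these data known. Genes of the lists are named by size of change, at most 3 per direction, list and comparison, and likeness genes by Pearson r. Some genes of the lists are not reported here by name. Alternatives were DESeq2 1.42.0, other scaling and filters, other models and left-out libraries. The untreated library entered no test.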

Additional observations from a re-analysis of the deposited data

Results flagged for a closer look

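The PARPi effect differed between time points for 4 members, beside 3412 of all 17218 genes. This was tested by the slope per doubling of time in edgeR. It was 1.14 for BCL2A1 and 0.47 for MCL1, whose log2 ratios to DMSO were largest at 48 h in both inhibitors, and −0.42 for BCL2 and −0.44 for BBC3, whose ratios were lower at 48 h than at 12 h with both inhibitors.

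For 5 members, beside 4505 of all 18606 genes, the knockdown effect differed between the shRNAs in the direct comparison of shEVI1-2532 with shEVI1-2531. The differences on the log2 scale were 0.96 for BCL2A1, 0.68 for BCL2L11, 0.53 for MCL1, −0.81 for PMAIP1 and −0.45 for BCL2L1. EVI1 differed between the same libraries by −1.70 (SE 0.20), and its part in these differences was not tested. No group held 4 or more libraries, so single libraries could not be tested for standing apart.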

How the results depend on the processing

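The number of members called for the mean PARPi effect was 2, and it was 4 with DESeq2 or with no filter on low counts, where 3438 and 3728 genes in all were called in place of 718. It was 0 when scaled to the library total only, with a filter of 1 CPM, without the time point in the model, with olaparib alone or with talazoparib alone (7, 6, 4, 5 and 3 at an unadjusted p under 0.05 in edgeR). In the same order, 468, 318, 16, 23 and 4 genes in all were called. With a time point left out, 0 to 4 members were called, and without the 24 h libraries 0 genes in all. With an inhibitor left out, 2 to 3 members instead of 4 had a slope. For shEVI1-2532, 7 members were called, 2 without the day in the model, 0 with both shRNAs as 1 group (4 at an unadjusted p under 0.05) and 4 to 7 with a library left out. For shEVI1-2531, 4 were called, 2 when scaled to the library total only, 0 without the day (3 at an unadjusted p under 0.05) and 1 to 4 with a library left out. Between the shRNAs 5 were called, 0 without the day (2 at an unadjusted p under 0.05) and 2 to 5 with a library left out. Over all 18606 genes, calls for shEVI1-2532 fell from 7648 to 3536 without the day and to 308 with both shRNAs as 1 group. Without the day they fell from 3235 to 565 for shEVI1-2531 and from 4505 to 921 between the shRNAs. The causes were not tested.

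No called member changed direction in any of the 520 refits of a member's fold change. Of these, 69 lost a call and 11 gained one. Library-total scaling moved the median slope of all genes to −0.12 and the median difference between the shRNAs to −0.11, and it turned the sign of 9 of 100 single-library ratios. With DMSO at 24 h as control, 5 of 40 ratios turned. Over all genes, calls ranged from 0 to 3768 around 718 for the mean PARPi effect, from 1705 to 3515 around 3412 for the slope, from 308 to 8482 around 7648 for shEVI1-2532, from 565 to 3999 around 3235 for shEVI1-2531, and from 921 to 5118 around 4505 between the shRNAs. The slope and the fits without a library rest on 2 and 1 residual degrees of freedom.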
